A study of Mus musculus with 64 samples.

Results

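The genes described here are 6 regulators of small GTPases of the Ras family: Rasd2 (which encodes Rhes), Rasd1 (Dexras1), Rasgrp1, Rasgrp2, Rasgrf1 and Rasgrf2. They were chosen by symbol and not by a cut on their measured values, though earlier results of these data were known. They are 6 of the 48795 genes in the deposited count table. All 6 passed the low-count filter in both tissues. RNA sequencing of striatum and cerebral cortex was done in 32 C57BL/6 mice aged 6 months, with 1 library per tissue and mouse, 64 libraries in all. The 4 genotypes were wild type, Polq+/-, Q140 and Q140 Polq+/-, each with 8 separate mice (4 females and 4 males). Q140 mice carry a long CAG repeat knocked into Htt, the mouse gene for huntingtin, which the labels give as heterozygous, and serve as a model of Huntington's disease. Polq encodes DNA polymerase theta. The label Polq+/- stands for 1 intact copy and was used as given.

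Ras and Rap proteins are switches that signal when bound to GTP. Exchange factors load them with GTP and GTPase-activating proteins turn them off. Rhes is a Ras-like GTPase known for its enrichment in striatum, where it is studied for binding G proteins and mutant huntingtin, and its transcript is induced by thyroid hormone. Dexras1, its closest relative, was named for its induction by dexamethasone, a glucocorticoid. Rasgrp1 and Rasgrp2 encode exchange factors of the Rasgrp family, which respond to diacylglycerol or calcium. Rasgrp1 acts on Ras, and Rasgrp2 acts mainly on Rap1. Rasgrf1 and Rasgrf2 encode exchange factors that bind calmodulin and couple calcium entry in neurons to Ras. Most striatal neurons are spiny projection neurons, which degenerate early in Huntington's disease.

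Striatal libraries held 28.7 to 40.6 M counted reads and cortical libraries 30.9 to 40.1 M. Polq itself was lower in cortex of Q140 Polq+/- than of Q140 mice (log2 fold change -1.14, SE 0.226, edgeR adjusted p = 0.0394). It did not pass the test in cortex of Polq+/- against wild type (-1.06, SE 0.223, adjusted p = 0.0797), nor in striatum (-0.90, SE 0.321, adjusted p = 0.938, for Polq+/- against wild type, and -1.18, SE 0.33, adjusted p = 0.926, with Q140). Htt was not called in striatum (Q140 against wild type, -0.05, SE 0.0558, adjusted p = 0.534). The dissections matched their labels: all 12 spiny neuron markers were higher in wild-type striatum than cortex (median log2 difference 5.02) and all 10 cortical excitatory neuron markers were lower (median -7.09). Of the striatal libraries, 3 (wild-type male 2, wild-type male 3 and Polq+/- female 3) had stood apart in earlier results of these data. In CPM (counts per 1 M reads, scaled between libraries), wild-type male 2 held the cerebellar transcript Cbln1 at 34.7 and Polq+/- female 3 the choroid plexus transcript Ttr at 1239. Calls of the 6 genes between genotypes that change without these 3 libraries are given both ways.

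Windows of 250 bases before annotated starts were read from RefSeq (GRCm38.p6) for 5 of the 6 genes. Rasgrp2 had 2 windows and Rasd1 none. Both Rasgrp2 windows lie inside the gene span given below, and the Rasgrp1 window overlaps the span of its gene. Below stand the parts of these windows outside annotated exons for the 3 genes that were lower in Q140 striatum, because they moved together in these libraries. They run 5′ to 3′ on the strand of the gene, and capitals mark matches to GGGCGG, the Sp site, on either strand. The first is chr8:75213694-75213943 (plus strand), the second chr19:6399625-6399745 (plus strand) and the third chr2:117343002-117343127 (minus strand).
Rasd2: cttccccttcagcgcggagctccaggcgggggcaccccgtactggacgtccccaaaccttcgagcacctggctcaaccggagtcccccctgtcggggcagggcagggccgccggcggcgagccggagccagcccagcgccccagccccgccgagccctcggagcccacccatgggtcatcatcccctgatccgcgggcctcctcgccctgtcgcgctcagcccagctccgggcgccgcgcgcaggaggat
Rasgrp2: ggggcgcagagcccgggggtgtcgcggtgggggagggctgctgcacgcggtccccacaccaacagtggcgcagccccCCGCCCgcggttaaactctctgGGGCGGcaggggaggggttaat
Rasgrp1: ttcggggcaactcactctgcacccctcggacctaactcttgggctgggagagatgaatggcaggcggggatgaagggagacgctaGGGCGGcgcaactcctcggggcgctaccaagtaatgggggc

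The windows of 250 bases were rich in G and C: 75.2% for Rasd2, 79.6% for the first Rasgrp2 window and 62.4% for Rasgrp1, against a median of 52.4% over 32851 windows. They were searched on both strands for 8 motifs: the Sp site GGGCGG, the cAMP response element TGACGTCA, the E-box CACGTG, the Egr site GCGTGGGCG, the glucocorticoid receptor half-site AGAACA, the nuclear receptor half-site AGGTCA, the TATA box TATAAA and the CAAT box CCAAT. The first Rasgrp2 window held 5 Sp matches, 2 of them sharing a base, and the second, which is exonic in 1 annotated transcript, held 2. Rasgrp1 and Rasgrf1 held 1 Sp match each, and 32.7% of all windows held at least 1. Rasgrf1 also held a CAAT box (33.8% of all windows) and Rasgrf2 an E-box (6.02%). None of the 8 motifs was present in the Rasd2 window. The cAMP response element (1.55% of all windows), Egr site (0.536%) and glucocorticoid receptor half-site (16.1%) were found in none of the windows searched. Nor were the nuclear receptor half-site and the TATA box (12.4%). Rasd1 had no window and was not searched. The 3 genes that were lower in Q140 striatum thus shared no motif of this list. An absent match says only that these letters are not in that window.

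The genes lie on different chromosomes. On GRCm38, Rasd2 (ENSMUSG00000034472) spans 75213944 to 75224113 on the plus strand of chromosome 8, and Rasd1 (ENSMUSG00000049892) spans 59963181 to 59964944 on the minus strand of chromosome 11. Rasgrp2 (ENSMUSG00000032946) spans 6399340 to 6415216 on the plus strand of chromosome 19, and Rasgrp1 (ENSMUSG00000027347) spans 117279993 to 117343001 on the minus strand of chromosome 2. Rasgrf1 (ENSMUSG00000032356) spans 89909908 to 90026977 on the plus strand of chromosome 9, and Rasgrf2 (ENSMUSG00000021708) spans 91880400 to 92131656 on the minus strand of chromosome 13. Rasgrp2 alone overlaps another annotated gene, the antisense transcript Gm14965, which had 0 to 10 counts per striatal library and 0 to 6 per cortical library.

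Per length of transcript, Rhes was the most abundant of the 6 in wild-type striatum and Dexras1 the least. Rasd2 stood at 342 ± 33.4 FPKM (fragments scaled to transcript length and depth, as deposited; SD, n = 8), rank 50 of all genes by mean level. Rasgrp1 followed at 134 ± 6.07 FPKM (rank 216). Rasgrp2 and Rasgrf1, at 35.1 ± 2.94 and 34.7 ± 1.55 FPKM, did not differ beyond their spread. Rasgrf2 stood at 4.01 ± 1.45 FPKM and Rasd1 at 1.31 ± 0.353 FPKM. In wild-type cortex the order was another. Rasgrp1 led with 100.3 ± 5.32 FPKM, followed by Rasgrf1 at 41.8 ± 1.63, Rasgrf2 at 34.6 ± 2.33 and Rasd2 at 33.6 ± 2.27, and the last pair did not differ beyond their spread. Rasd1 (2.46 ± 0.92) and Rasgrp2 (1.72 ± 0.173) came last.

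The tissues therefore differed in the transcript levels of these exchange factors and GTPases. In wild-type mice, tested on counts with the mouse as a block, Rasgrp2 was 20.1-fold higher in striatum than in cortex and Rasgrp1 1.32-fold. Rasd2 was higher by 3.32 on the log2 scale (SE 0.0485). Rasgrf2 was lower in striatum, at 0.110 of its cortical level, as were Rasd1 (0.534) and Rasgrf1 (0.816). All 6 differences passed the test, with the largest adjusted p, 5.45e-09, for Rasd1. The same test called 77.2% of all 19091 genes, so that passing it is not particular to these genes. Within single wild-type mice the striatal over cortical ratio of Rasgrp2 ran from 16.3 to 23.3 (median 20.4), that of Rasd2 from 8.60 to 12.3 (median 9.90) and that of Rasgrf2 from 0.0764 to 0.215 (median 0.104).

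**Figure D1:**
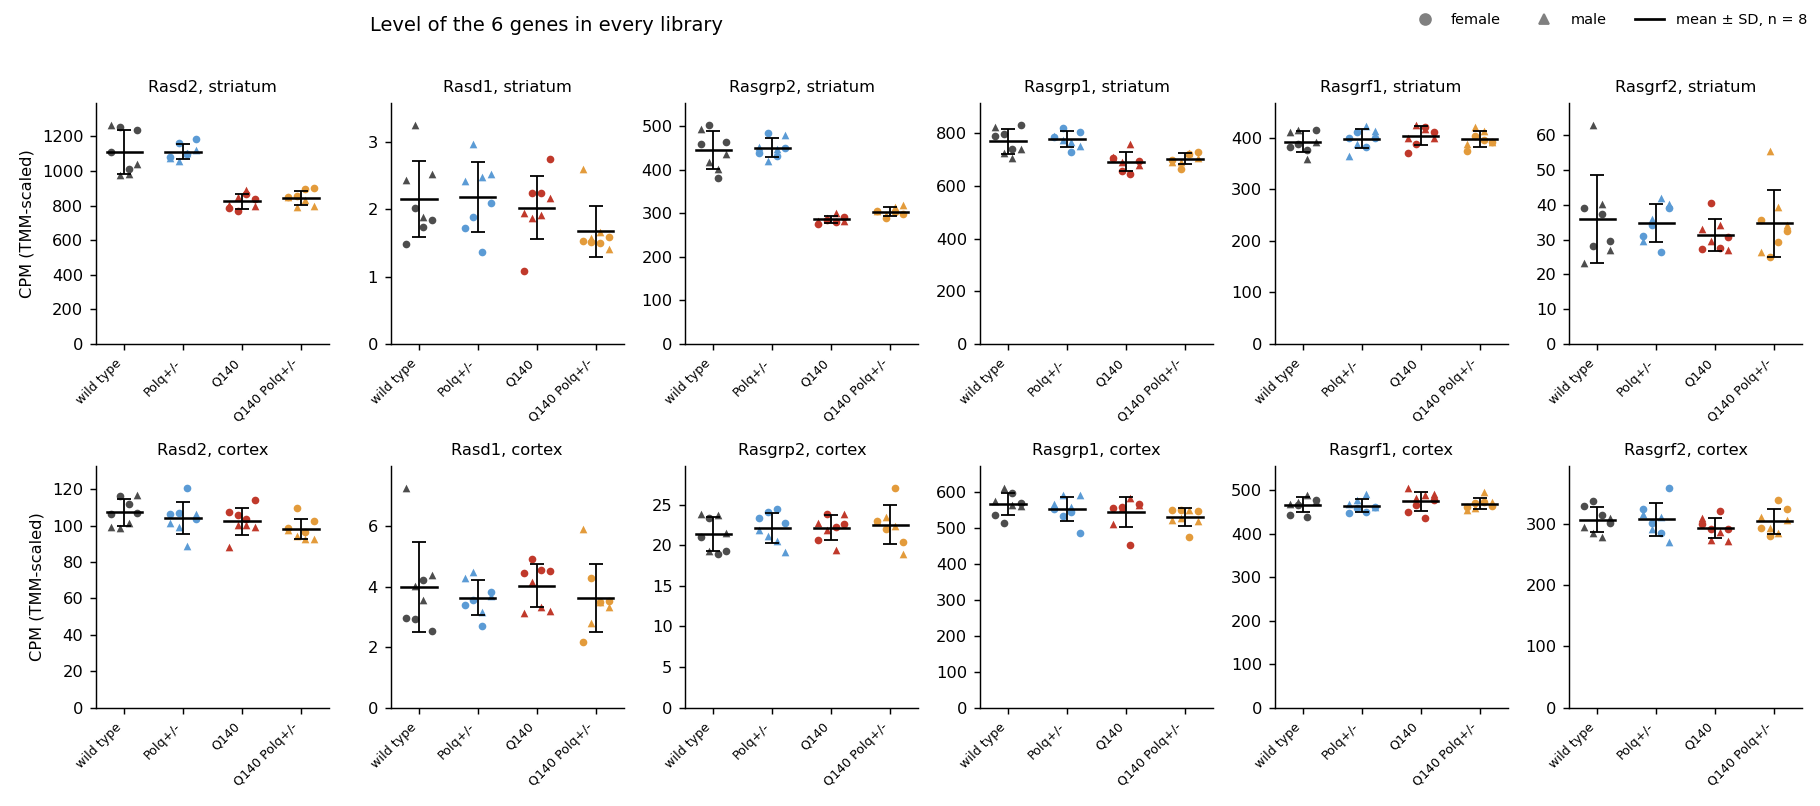
Level of each of the 6 genes in every library, in CPM scaled between libraries (vertical axis, from 0), by genotype (horizontal axis) in striatum (upper row) and cortex (lower row). Circles are females and triangles males, and lines with bars are the mean and SD of 8 mice. Striatal Rasd2 and Rasgrp2 of both Q140 groups lie below every mouse without the allele, an order not counted over all genes. The cortical groups overlap for all 6 genes.

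Q140 was first set against wild type, which asks about the expanded allele with both Polq copies present. In striatum, Rhes and both Rasgrp factors were lower, and Dexras1 and both calmodulin-binding factors were not called. So 3 of the 6 genes passed the test, all lower. Of all 18270 genes tested in striatum, 32.1% were called, so a call as such does not set these genes apart. Striatal libraries are bulk tissue, in which fewer cells of a type and less RNA per cell cannot be told apart.

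Rasd2 ran from 976 to 1268 CPM in wild-type striatum (median 1075) and from 769 to 889 CPM in Q140 (median 821). Every Q140 mouse was below every wild-type mouse, an order that 4.18% of all genes tested showed, and the wild-type mice were the more spread. The means were 1110 ± 126 and 825 ± 42.3 CPM (SD, n = 8), a log2 fold change of -0.43 (SE 0.0453, edgeR adjusted p = 1.36e-09). Rhes transcript thus fell by 25.6%. Among genes ordered from the lowest fold change upward, Rasd2 was at place 918 of 18270. It also stayed the more abundant of the 2 GTPases by far, at 265 ± 11.2 FPKM in Q140 striatum (rank 73).

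Rasgrp2 changed the most. It ran from 381 to 503 CPM in wild-type striatum (median 448) and from 275 to 301 CPM in Q140 (median 283), again with no overlap. The 8 Q140 mice lay close together, with an SD of 7.77 CPM around a mean of 286 against 444 ± 43.2 CPM in wild type. The log2 fold change was -0.64 (SE 0.041, edgeR adjusted p = 4.48e-15). Rasgrp2 fell by 35.7%, at place 395 from the lowest.

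Rasgrp1 changed less, and its groups overlapped. It ran from 705 to 833 CPM in wild type (median 765) and from 644 to 761 CPM in Q140 (median 692). All 8 Q140 mice were below the wild-type median and 5 of them below the lowest wild-type mouse. The log2 fold change was -0.15 (SE 0.0344, edgeR adjusted p = 0.000684), so that it fell by 9.93%. On deposited FPKM with a pseudocount of 0.1 the change, on the log2(FPKM + 0.1) scale, was -0.09 (limma adjusted p = 0.015).

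Rasgrf1, at 358 to 415 CPM in wild type (median 390) and 371 to 425 CPM in Q140 (median 406), gave a log2 fold change of 0.04 (95% interval -0.02 to 0.11, adjusted p = 0.355). Its groups covered nearly the same range. On FPKM plus 0.1, which shifted the median of all genes by 0.06, limma called Rasgrf1 higher (0.10, adjusted p = 0.00408). Rasgrf2 ran from 23.3 to 63.0 CPM in wild type (median 33.4) and from 26.9 to 40.5 CPM in Q140 (median 30.2), with a log2 fold change of -0.20 (95% interval -0.52 to 0.13, adjusted p = 0.393). The wild-type group spread the widest because of male 2, at 63.0 CPM. Without the 3 libraries that stood apart the Rasgrf2 value was 0.01 (adjusted p = 0.962).

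Rasd1 was a low transcript, with 36 to 122 counts per library in these groups. It ran from 1.48 to 3.25 CPM in wild type (median 1.95) and from 1.09 to 2.74 CPM in Q140 (median 2.05). The groups overlapped fully in their middle, and the log2 fold change was -0.06 (95% interval -0.35 to 0.22, adjusted p = 0.786).

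The comparison of Q140 Polq+/- with Polq+/- asked the same question in mice labelled with 1 Polq copy, and shared no library with the first. The same 3 genes were lower, where 31.4% of all genes were called. Rasd2 ran from 1058 to 1185 CPM in Polq+/- striatum (median 1101) and from 791 to 903 CPM with Q140 (median 847). Rasgrp2 ran from 420 to 484 CPM (median 449) and from 288 to 318 CPM (median 303), and Rasgrp1 from 730 to 822 CPM (median 780) and from 666 to 729 CPM (median 703). For all 3 genes every Q140 Polq+/- mouse was below every Polq+/- mouse, an order that 6.55% of all genes showed. The log2 fold changes were -0.39 (SE 0.0453, edgeR adjusted p = 9.09e-09) for Rasd2, -0.57 (SE 0.0409, adjusted p = 8.37e-14) for Rasgrp2 and -0.15 (SE 0.0344, adjusted p = 0.00105) for Rasgrp1. On FPKM plus 0.1 or plus 1 the Rasgrp1 value came to as little as -0.07 (largest limma adjusted p 0.0424).

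Dexras1 was near the threshold in this pair. Rasd1 ran from 1.36 to 2.97 CPM in Polq+/- striatum (median 2.26) and from 1.41 to 2.60 CPM in Q140 Polq+/- (median 1.55). In the latter group 7 of 8 mice were below the Polq+/- median, and male 1 stood alone at 2.60 CPM. The log2 fold change was -0.36 (SE 0.148, edgeR adjusted p = 0.0576). It was called by DESeq2 (adjusted p = 0.0469), with only the groups compared in the fit (0.029), without the 3 libraries that stood apart (-0.43, adjusted p = 0.0166) and without male 1 (-0.46, adjusted p = 0.0173). It was also called without 4 other single libraries, Polq+/- female 3, wild-type male 2 and Q140 females 1 and 4 (largest adjusted p 0.0468). Rasgrf1 (-0.00, 95% interval -0.07 to 0.06, adjusted p = 0.982) and Rasgrf2 (-0.01, 95% interval -0.33 to 0.32, adjusted p = 0.983) were not called.

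With both pairs averaged, 16 carriers against 16 non-carriers, Rasgrp2 was at -0.60 (SE 0.029), Rasd2 at -0.41 (SE 0.032) and Rasgrp1 at -0.15 (SE 0.0243), with 44.8% of all genes called. The largest edgeR adjusted p of the 3 was 3.78e-06. The other 3 genes were not called (smallest adjusted p 0.093, for Rasd1). Rasd1 passed without Polq+/- female 3 (-0.25, adjusted p = 0.0495), without Q140 Polq+/- male 1 (-0.26, 0.0361) or without Q140 female 4 (-0.26, 0.0314). On FPKM plus 0.1 limma called Rasgrf1 higher in carriers (0.09, adjusted p = 0.000543).

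**Figure D2:**
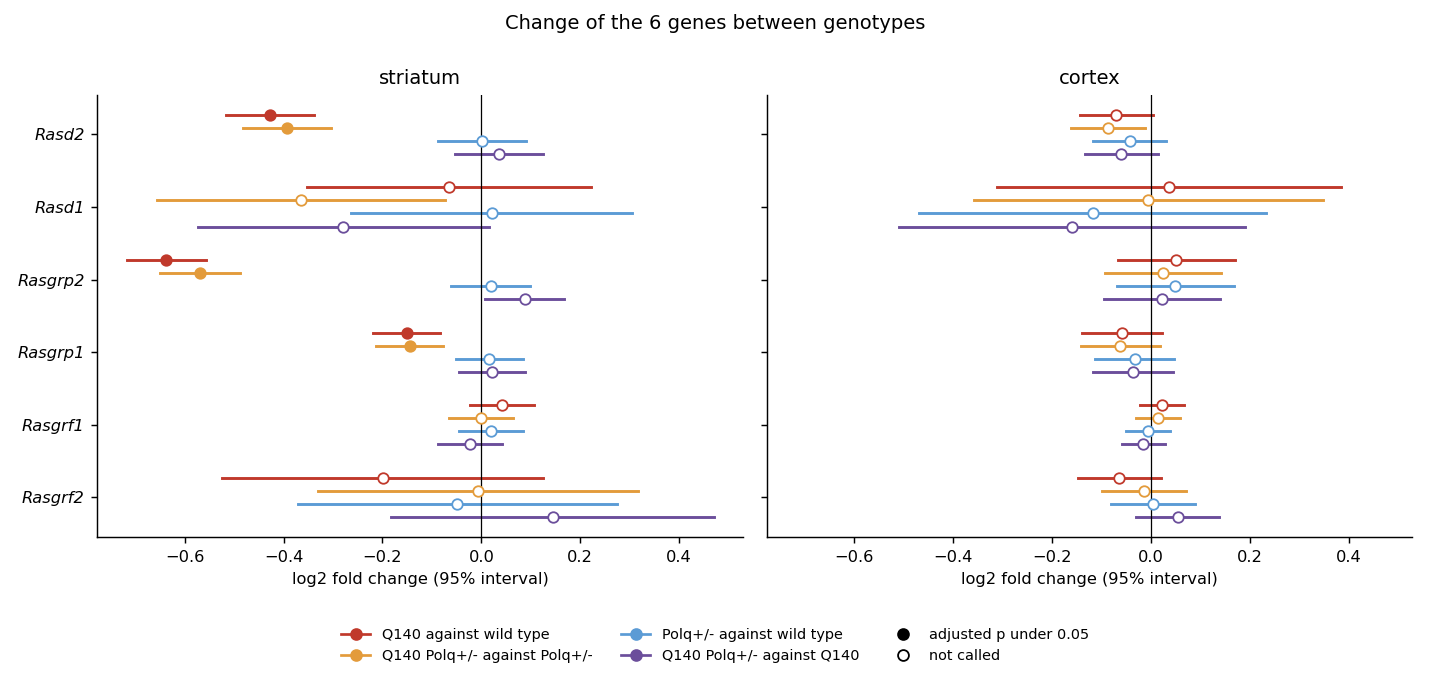
Log2 fold change (horizontal axis) of each gene in 4 comparisons of genotypes, in striatum (left) and cortex (right). Points are edgeR estimates, bars their 95% intervals, and filled points passed an adjusted p of 0.05. In striatum Rasgrp2, Rasd2 and Rasgrp1 are filled on the lower side in both Q140 comparisons, and no cortical point is filled.

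The Polq label was not accompanied by a called change in any of the 6 genes. In striatum, Polq+/- against wild type called 0 of the 6 (0.0493% of all genes), with fold changes between -0.05 for Rasgrf2 and 0.02 for Rasd1 on the log2 scale. Without the 3 libraries that stood apart Rasgrf2 was at 0.21 and Rasd1 at 0.14, neither called, so that the sign of the Rasgrf2 value rested on them. Q140 Polq+/- against Q140 also called 0 (0.0547% of all genes). Rasgrp2 was above the Q140 median in 8 of 8 mice there (0.09, SE 0.0409, unadjusted p = 0.0399, edgeR adjusted p = 1), the 1 member with an unadjusted p under 0.05. In cortex both comparisons called 0 members (0.0442% and 0.0552% of all genes), none with an unadjusted p under 0.05. The interaction, the difference of the Q140 effect between the Polq labels, called 0 members and 0% of all genes in both tissues, again with no member under 0.05 before adjustment. Its 95% interval was -0.05 to 0.18 for Rasgrp2 and -0.09 to 0.16 for Rasd2 in striatum. For Rasgrf2 it was 0.19 there, and -0.06 without the 3 libraries that stood apart. DESeq2 and limma on FPKM likewise called 0 members in these comparisons.

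In cortex the Q140 allele was not accompanied by a called change in any of the 6 genes. Q140 against wild type called 0 of them (0.348% of all genes) and Q140 Polq+/- against Polq+/- called 0 (0.337%), with edgeR, DESeq2 and limma on FPKM, and 0 and 1 of them had an unadjusted p under 0.05. Rasd2 ran from 98.8 to 117 CPM in wild-type cortex (median 107) and from 88.1 to 114 CPM in Q140 (median 102). It ran from 89.1 to 121 CPM in Polq+/- (median 105) and from 92.6 to 110 CPM in Q140 Polq+/- (median 97.2). The groups overlapped, with carriers somewhat lower. Over all carriers the log2 fold change was -0.08 (SE 0.0268, unadjusted p = 0.00619, edgeR adjusted p = 0.123), and 2.46% of all genes were called. Without Polq+/- male 3 Rasd2 was called in that comparison (-0.09, adjusted p = 0.043). Rasgrp2, low in cortex at 18.9 to 27.0 CPM over all 32 libraries, had a carrier difference of 0.04 (95% interval -0.05 to 0.12, adjusted p = 0.758). Rasgrp1 stood at -0.06 (SE 0.029, unadjusted p = 0.0461, adjusted p = 0.335), and the remaining 3 lay between -0.04 and 0.02.

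The difference between tissues was tested in 1 model of the 64 libraries that had a term for each mouse. The Q140 effect on Rasgrp2 was lower in striatum than in cortex by a log2 difference of -0.65 (SE 0.0501, edgeR adjusted p = 1.89e-12), and that on Rasd2 by -0.34 (SE 0.045, adjusted p = 2.62e-07). This test called 32.1% of all genes. For Rasgrp1 the difference was -0.09 (SE 0.0388, adjusted p = 0.0652), called by limma voom (adjusted p = 0.043) and without the mice of the 3 libraries that stood apart (-0.13, adjusted p = 0.0142). For Rasd1 it was -0.25 (adjusted p = 0.119). In single mice the striatal over cortical ratio of Rasgrp2 was 16.3 to 23.3 in wild type and 11.4 to 14.9 in Q140, without overlap. That of Rasd2 was 8.60 to 12.3 in wild type and 7.02 to 8.84 in Q140, with an overlap at the edge. How many of all genes lack an overlap in this ratio was not counted. Both genes remained several times higher in striatum than in cortex in every Q140 mouse.

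**Figure D3:**
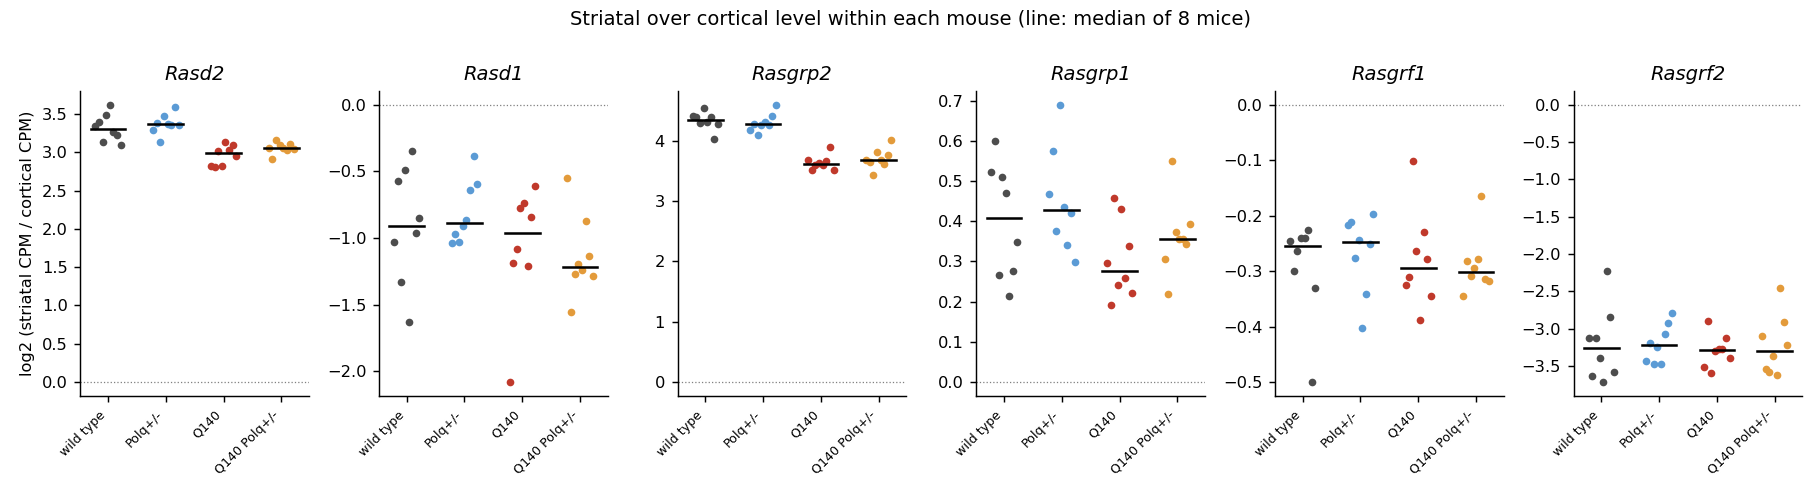
Log2 ratio of striatal to cortical CPM within each mouse (vertical axis, scaled per gene) for the 6 genes, by genotype (horizontal axis). Each point is 1 mouse, the line is the median of 8, and the dotted line marks equal levels. The ratio of Rasgrp2 is lower in both Q140 groups with no overlap with the groups lacking the allele, an order not counted over all genes. The medians of Rasgrf2 lie between -3.29 and -3.22 in the 4 genotypes.

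The 3 genes that were lower did not fall by the same amount. Ratios within a library, which do not depend on the scaling between libraries, were formed after these levels were seen, and 12 went through a two-sided exact permutation test, 8 mice against 8 (smallest p possible 0.000155). The log2 ratio of Rasgrp2 to Rasd2 was lower in Q140 than in wild type by -0.21 (SE 0.0321, permutation adjusted p = 0.000233, 8 of 8 lower than the wild-type median), and lower in Q140 Polq+/- than in Polq+/- by -0.18 (SE 0.0395, permutation adjusted p = 0.00131). That of Rasgrp1 to Rasd2 was higher by 0.27 (SE 0.042, permutation adjusted p = 0.000414) and 0.25 (SE 0.0315, permutation adjusted p = 0.000233). Each of these orders held in 8 of 8 mice of the Q140 group.

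The 12 spiny neuron markers served as a reference within each library. Whether their change is that of spiny neuron transcripts in general was not tested. All 12 were called lower in Q140 striatum against wild type, with a median log2 fold change of -0.63, among them Penk (-1.21), Adora2a (-0.88) and Drd2 (-0.61), which encode proenkephalin, an adenosine receptor and a dopamine receptor. Their summed level ran from 13252 to 15827 CPM in wild type and from 8488 to 9980 CPM in Q140. Against the mean log2 level of these markers in the same library, Rasgrp2 differed by -0.02 (SE 0.0345, exact permutation p = 0.62) in Q140 against wild type and by 0.02 (SE 0.0263, p = 0.377 by the same exact test) in the Polq+/- pair. Rasd2 rose relative to the markers by 0.19 (SE 0.0333, permutation adjusted p = 0.000233) and 0.20 (SE 0.0238, permutation adjusted p = 0.000233). Rasgrp1 rose relative to them by 0.46 (SE 0.0251) and 0.45 (SE 0.0179), each with the same adjusted permutation p. The transcripts of Rhes and Rasgrp1 thus fell less than the markers did, and a difference between Rasgrp2 and the markers was not detected. None of these 12 ratios changed its call without the 3 libraries that stood apart.

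Across the 32 striatal libraries the level of Rasgrp2 was most like that of Kcnh4 (r = 0.99, log2 CPM), Rgs9 (0.98) and Scn4b (0.98), among genes with a mean of at least 1 CPM. Rgs9 encodes a regulator of G protein signalling and Kcnh4 and Scn4b encode ion channel subunits. For Rasd2 the most alike were Actn2 (0.98), Hpca (0.98), which encodes the calcium sensor hippocalcin, and Syndig1l (0.97). For Rasgrp1 they were Ttl (0.93), Acvr1c (0.92) and Strn (0.91). The values were lower for Rasgrf2 (Gpr37, 0.81, Pllp, 0.81, and Sept4, 0.81), Rasgrf1 (Vps33a, 0.77, Agpat3, 0.76, and Ap2a1, 0.75) and Rasd1 (Fbxo27, 0.69, Clstn3, 0.66, and Egln2, 0.63). These correlations describe 32 libraries that share the genotype differences, and they carry no test. With the means of genotype and sex removed, Rasd2 and Rasgrp2 still had r = 0.79, Rasd2 and Rasgrp1 0.65 and Rasgrp1 and Rasgrp2 0.64 in striatum. In cortex the same pairs had r = -0.06, 0.33 and -0.42.

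Relative to its mean, Rasgrf2 varied the most of the 6 genes in striatum of wild-type and Q140 Polq+/- mice (SD 35.0% and 27.6% of the mean), and Rasd1 in that of Polq+/- and Q140 mice (23.8% and 23.2%). The highest libraries of Rasgrf2 were wild-type male 2 (63.0 CPM) and Q140 Polq+/- male 2 (55.4 CPM), with 42.0 CPM next. These were also the 2 libraries with the highest summed level of the 10 cortical excitatory neuron markers, 178 CPM in wild-type male 2 and 190 CPM in Q140 Polq+/- male 2. They ranked 1 and 4 of 32 by oligodendrocyte markers as well (7522 and 7108 CPM). Slc17a7, 1 of these 10 markers, was at 23.1 CPM in wild-type male 2 and at 3.10 CPM in Q140 Polq+/- male 2. The next highest striatal library held it at 6.19 CPM. Wild-type male 2 also held the cerebellar transcript Cbln1 at 34.7 CPM. How far its place by the summed markers rests on Slc17a7 was not tested. The summed level of the cortical markers lay at 138 to 178 CPM in wild-type striatum and at 2451 to 2560 CPM in wild-type cortex. In Q140 striatum it was 164 to 175 CPM, with 3 of 8 tested markers called higher, among them Cux2 and Lamp5. The part of these transcripts in the striatal Rasgrf2 values was not tested.

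Sex was examined in both tissues. In cortex Rasd2 was higher in females, at 96.6 to 121 CPM (median 107, 16 mice) against 88.1 to 117 CPM in males (median 99.1). Of the 16 females, 14 were above the male median, and in each genotype all 4 females were above the median of its males. The log2 difference was 0.12 (SE 0.0268, edgeR adjusted p = 0.011), where 1.15% of all genes were called. Cortical Rasgrf1 was lower in females (-0.06, SE 0.016, adjusted p = 0.0571), with 2 of 16 above the male median, and was called by DESeq2 (adjusted p = 0.0174), by limma on FPKM plus 0.1 (0.0437) and by edgeR without any 1 of 6 libraries (smallest adjusted p 0.0196, without Q140 Polq+/- male 1). In striatum edgeR, DESeq2 and limma on FPKM called 0 of the 6 genes by sex (0.367% of all genes), and Rasd1 had an unadjusted p under 0.05. Striatal Rasd1 was at -0.32 in females against males (SE 0.104, edgeR adjusted p = 0.253).

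Rasd1 had 4 males above all 4 females in Polq+/- striatum, at 2.42 to 2.97 CPM against 1.36 to 2.09 CPM. In Q140 cortex the order was the other way, with females at 4.44 to 4.93 CPM and males at 3.14 to 4.16 CPM. Other members also lacked an overlap of the sexes in single groups, such as Rasd2 and Rasgrf1 in Q140 cortex. How many of all genes do so was not counted. In Q140 striatum Rasd1 of the males lay at 1.87 to 2.16 CPM, within the females' 1.09 to 2.74 CPM. The Q140 effect, averaged over the Polq labels, was -0.43 in males (SE 0.139, edgeR adjusted p = 0.0149) and 0.01 in females (SE 0.144, adjusted p = 0.956). The difference itself, 0.45 (SE 0.199, unadjusted p = 0.0314), did not pass adjustment over all genes (edgeR adjusted p = 0.967), nor did that in cortex (0.53, SE 0.22, unadjusted p = 0.0235, adjusted p = 0.758). With edgeR, the tool run for it, 0 of the 6 genes were called for a sex difference of the Q140 effect in either tissue, as for 0% of all genes, and Rasd1 was the 1 with an unadjusted p under 0.05 in both.

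The level of Dexras1 varied between mice along with other transcripts that glucocorticoids induce. A score was taken as the mean of 12 such genes, each scaled to unit variance, among them Fkbp5, a co-chaperone of the glucocorticoid receptor, and Sgk1, a kinase. Deviations from the means of genotype and sex were compared over 32 mice, with p from 100000 permutations of mice within genotype and sex and adjusted over 3 relations. In cortex Rasd1 followed the score with Pearson's r = 0.75 (permutation p = 0.00015, adjusted p = 0.00045) and Spearman's rho = 0.71 (permutation p = 0.00023). Without the 2 mice farthest from the median score r was 0.68. In striatum r was 0.53 (permutation p = 0.00812, adjusted p = 0.0122) and rho 0.47 (permutation p = 0.0131), and r fell to 0.39 without the farthest 2. Within a genotype r lay between 0.30 (Q140) and 0.92 (Q140 Polq+/-) in cortex and between 0.34 (wild type) and 0.82 (Polq+/-) in striatum, each over 8 mice. With Fkbp5 and Sgk1 alone r was 0.67 in cortex (permutation adjusted p = 0.00336) and 0.47 in striatum (permutation adjusted p = 0.0273). Rasd1 of striatum and cortex of the same mouse gave r = 0.32 (permutation p = 0.0824) and rho = 0.33 (permutation p = 0.0873), r = 0.22 without the farthest 2. How many of all genes follow the score as closely as Rasd1 was not counted. The hour at which tissue was taken was not analysed here.

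**Figure D4:**
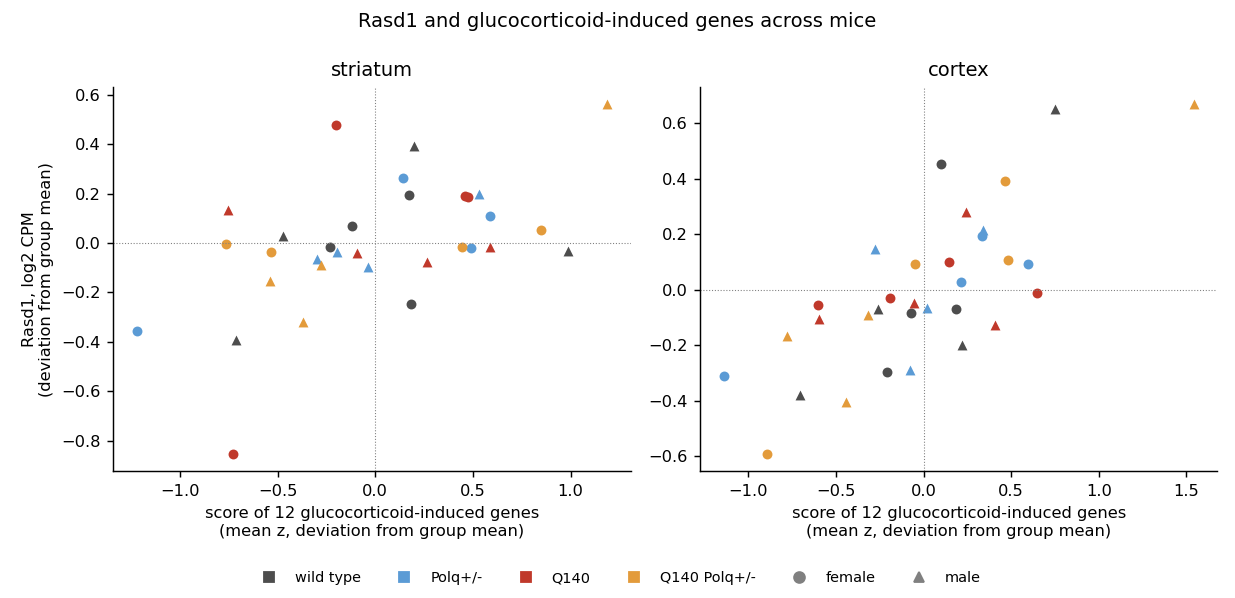
Rasd1 (vertical axis, log2 CPM) against the score of 12 glucocorticoid-induced genes (horizontal axis, mean of z values), both as deviations from the mean of the mouse's genotype and sex, in striatum (left) and cortex (right). Each point is 1 of 32 mice, coloured by genotype, with circles for females and triangles for males. The points rise from lower left to upper right more tightly in cortex (r = 0.75) than in striatum (r = 0.53), a difference that was not tested.

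The genes around these regulators changed in both directions in striatum. Of all genes tested, 15.2% were called lower and 16.9% higher in Q140 against wild type, the shares beside which the counts of each list stand, and several lists lie near them. On the Polq+/- background these shares were 15.3% and 16.1%. Among 14 tested Ras and Rap GTPases, 4 were lower in Q140 than in wild type and 1 was higher (median -0.02, against 0.00 over all genes). Hras, which encodes H-Ras, was at -0.53 (SE 0.0353, edgeR adjusted p = 8.69e-15), Rras at -0.30 and Rala at -0.13. Of 10 other Ras and Rap exchange factors, 2 were higher (Sos1, 0.23, adjusted p = 6.38e-06, and Sos2, 0.16, adjusted p = 0.000177, which act downstream of growth factor receptors) and 2 were lower. The lower pair were Rapgef2 at -0.14 and Rasgrp3, a close relative of Rasgrp1, at -0.19. Of 16 GTPase-activating proteins 6 were lower and 1 higher (median -0.12), led by Rap1gap at -0.49 (adjusted p = 5.75e-09), which turns off Rap1, and followed by Sipa1l3 (-0.24) and Sipa1l1 (-0.20), which also act on Rap. So transcripts both for a factor that loads Rap1, Rasgrp2, and for a protein that turns it off, Rap1gap, were lower in the same libraries.

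A list of diacylglycerol and calcium inputs holds enzymes that make or remove diacylglycerol or respond to it or to calcium. It had 9 of 19 genes lower and 3 higher (median -0.09). Prkcb (-0.47), a protein kinase C, and Plcb1 (-0.36), a phospholipase that makes diacylglycerol, were among those with the smallest p. On the Polq+/- background 12 were lower and 3 higher. Downstream, the Raf to ERK cascade had 3 of 14 lower and 2 higher (median -0.04): Rps6ka5, the kinase MSK1, was at -0.55, Rps6ka2 at -0.28 and Ksr1, a scaffold, at 0.29. Of 14 genes that ERK signalling induces and that dampen it, 6 were lower and 0 higher (median -0.18), among them Spry2 (-0.47), Dusp14 (-0.85) and Spred1 (-0.21). On the Polq+/- background 8 of these 14 were lower and 0 higher.

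Partners of Rhes and Dexras1 did not move in 1 direction: 4 of 14 were higher and 2 lower (median 0.01). Gnao1, a G protein alpha subunit, was at -0.18, Gnai1, another, at 0.21, and Pik3r1, the regulatory subunit of PI3 kinase, at 0.18. Mtor (0.15) and Acbd3 (0.14) were the other higher partners and Bnip3l (-0.10) the other lower one. Of 10 thyroid hormone genes 5 were lower and 0 higher (median -0.12), with Nrgn, which encodes the calmodulin-binding protein neurogranin, at -0.35, Hr at -0.42 and the transporter Slco1c1 at -0.19. By limma on FPKM plus 0.1 that list had 2 lower and 1 higher. Of 12 glucocorticoid-induced genes 1 was called, Per1 (-0.47, adjusted p = 0.0151), while on FPKM plus 0.1 limma called 5 higher and 1 lower.

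Genes of the striatal compartments, striosomes and matrix, were examined because both Rasgrp genes are known for unequal expression between them. With lists this short, 1 gene called lower or higher is near the share of all genes (15.2% and 16.9%). Of 9 striosome genes 3 were lower (among them Kremen1, -0.28, and Bach2, -0.57) and 1 was higher (Oprm1, the mu opioid receptor, 0.41). Of 6 matrix genes 1 was lower (Id4, -0.57) and 2 were higher (Brinp3, 0.52, and Zfhx3, 0.26). This balance of the matrix genes did not repeat on the Polq+/- background, where 2 were lower and 1 higher. Of the striosome genes 2 were lower and 1 higher there. Markers of other cells were counted in the same comparison. Called lower, beside 15.2% of all genes, were 5 of 7 microglial, 6 of 7 endothelial, 2 of 7 oligodendrocyte, 1 of 7 astrocyte and 1 of 8 interneuron markers, with no higher gene in these lists. On the Polq+/- background the counts were 0, 4, 2, 3 and 1. Their part in the striatal values of the 6 genes was not tested.

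**Figure D5:**
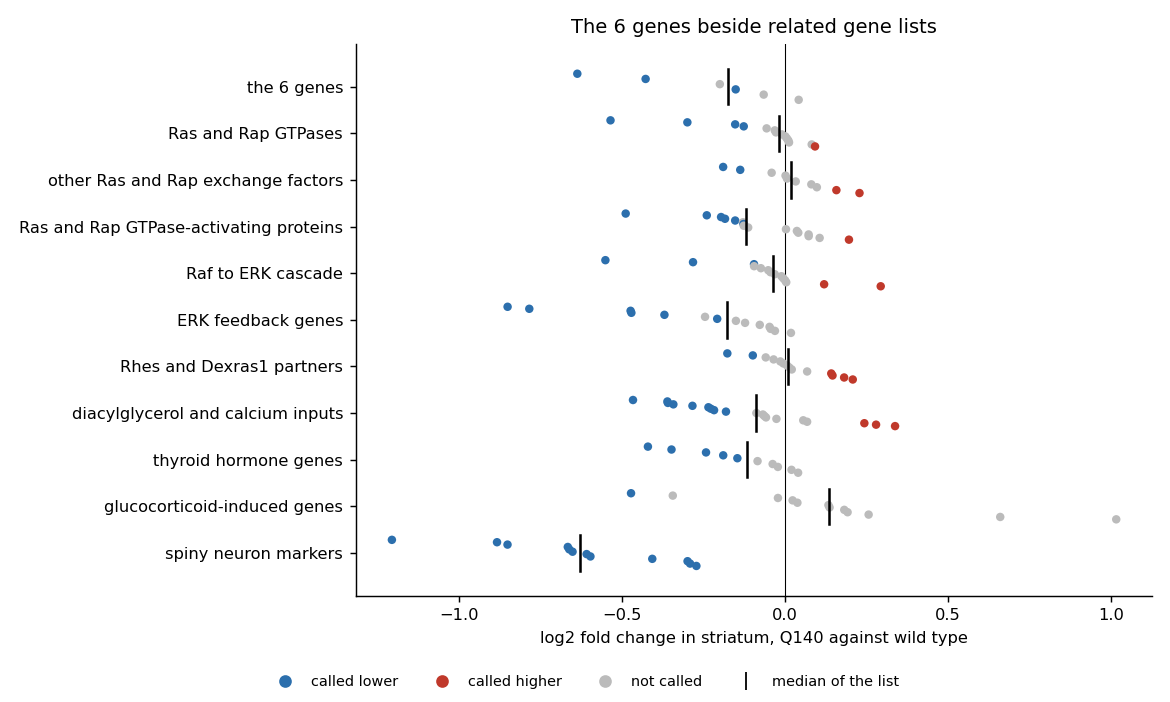
Log2 fold change in striatum of Q140 against wild type (horizontal axis) for the 6 genes and for the genes of 10 related lists (vertical axis). Each point is a gene, blue where called lower, red where called higher and grey where not called, and the black bar is the median of the list. The spiny neuron markers lie wholly on the lower side (median -0.63), and the lists of Ras signalling spread to both sides of 0.

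In cortex, over all carriers against non-carriers, few of these genes were called, beside 1.61% of all genes lower and 0.85% higher. None of the 14 GTPases, 10 exchange factors and 14 partners of Rhes and Dexras1 passed edgeR's test. Sipa1l1 (-0.15, adjusted p = 0.00127) was the 1 GTPase-activating protein called, Mapk3, which encodes ERK1, the 1 gene of the ERK cascade (0.16, adjusted p = 0.0398) and Dusp14 the 1 feedback gene (-0.13, adjusted p = 0.0461). Of the 19 diacylglycerol and calcium genes 3 were lower, among them Dgkz (-0.10) and Prkca (-0.11). Of 10 thyroid hormone genes 1 was called lower in cortex and 1 higher. The lower one, Nrgn (-0.09, edgeR adjusted p = 0.00615), was also lower in striatum.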

How the data were processed

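Counts per gene were made and deposited by the authors, with STAR 2.7.5c, SAMtools 1.10 and HTSeq 0.12.3 on GRCm38 (mm10), per the submitters' processing notes. Whether HTSeq counted by strand was not stated. The authors also deposited FPKM values per gene. Libraries were TruSeq stranded, per the labels' protocols. Of the deposited gene symbols, 27 read as dates and were replaced by gene ID.

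Counts were tested with edgeR 4.0.16 (robust quasi-likelihood, TMM scaling, filterByExpr, R 4.3.3) on genotype and sex over the 32 libraries of a tissue, which left 18270 genes in striatum and 18116 in cortex. Comparisons of tissues used all 64 libraries and 19091 genes, with the mouse as a block. P-values were adjusted by Benjamini-Hochberg over all genes, and called means an adjusted p under 0.05. DESeq2 1.42.0 and limma 3.58.1 (on log2 of FPKM plus 0.1 or 1) were alternatives, and SciPy 1.17.1 gave the exact permutation tests. The fits were tested on simulated data. Named genes were the 6 members, up to 3 called genes of each list with the smallest p (Rasgrp3, Mtor, Acbd3 and Bnip3l were added after their values were seen) and, for each member, the 3 genes with the highest correlation. The members and lists were chosen with earlier results of these data known. Single values of some list genes are not reported here.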

Additional observations from a re-analysis of the deposited data

Results flagged for a closer look

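In 4 of the 48 groups of 8 mice (6 genes, 4 genotypes, 2 tissues) the highest or lowest mouse stood far from the next, where chance flags about 1 group in 20. Striatal Rasd1 of Q140 Polq+/- male 1 was 2.60 CPM, with the next at 1.66 CPM. Cortical Rasd1 of wild-type male 1 was 7.26 CPM, with the next at 4.40 CPM. Cortical Rasgrp1 of Q140 Polq+/- female 3 was 474.7 CPM, with the next at 519 CPM. Striatal Rasgrf2 of wild-type male 2 was 63.0 CPM, with the next at 40.3 CPM.

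The Q140 effect differed between the tissues for 2 genes by the test of the difference itself, striatum minus cortex: Rasgrp2 by -0.65 and Rasd2 by -0.34 on the log2 scale.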

How the results depend on the processing

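Of 872 values under the named alternatives, 860 kept their side of the threshold and 12 passed it only under the alternative. These values are those of single members, of the within-library ratios and of the Rasd1 relations to the glucocorticoid-induced genes. With 1 library left out, 2673 of 2688 kept their side and 15 passed it only then. No called value lost its call or changed sign. Of values not called, 36 of 733 under the named alternatives and 138 of 2368 with 1 library left out had the other sign. The 3 striatal calls of Rasd2, Rasgrp2 and Rasgrp1 were made under every alternative run.

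Counts over all genes moved more in cortex. DESeq2 called 154 genes for Q140 against wild type (63 with edgeR), 181 for Q140 Polq+/- against Polq+/- (61), 16 for Q140 Polq+/- against Q140 (10) and 406 by sex (209), and 121 by sex in striatum (67). With the plate column as a covariate the first 2 cortical counts were 25 and 35, and that of carriers 266 (446). For Q140 Polq+/- against Polq+/- in cortex, limma called 35 on FPKM plus 0.1 and 34 on FPKM plus 1, and 34 were called with only the groups compared. Without the 4 mice labelled Polq+/- with the lowest Polq, cortex gave 14 for that pair, 6 for Q140 Polq+/- against Q140, 263 for carriers and 109 by sex. Without the 3 striatal libraries that stood apart, Polq+/- against wild type gave 4 (9). Leaving out 1 library gave 23 to 82 in cortex for Q140 against wild type, 24 to 139 for Q140 Polq+/- against Polq+/-, 5 to 10 for Polq+/- against wild type and 157 to 325 by sex. Members called in cortex were 0 to 1 for carriers and 1 to 2 by sex when 1 library was left out, and 2 by sex with DESeq2 or either FPKM fit. The causes were not tested.

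On FPKM plus 0.1, 5355 of 7166 genes called in Q140 striatum were higher, against 3095 of 5869 on counts. Same-numbered mice shared little (median correlation 0.0202 in striatum and 0.0269 in cortex), so the numbers were not taken as pairs. With the replicate block 5878 and 5738 genes were called in the 2 striatal Q140 comparisons, with 3 members in each, and no call of a member changed. Rasd1, at 36 to 122 counts per striatal library, is the member whose precision depth limits most. The plate column is partly confounded with genotype.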
